A study of Mus musculus with 12 samples.

Results

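The proton pump and the hydrolases of the lysosome were examined in bone marrow cells of young and aged mice that were sorted as monocytic myeloid-derived suppressor cells (M-MDSCs), immature suppressive cells of the monocyte lineage. The members were the rows of the deposited table whose symbol began with Atp6v or Atp6ap, together with 19 lysosomal hydrolases and 7 lysosome membrane or activator genes chosen by name. They came to 52 of the 23420 genes in the table, of which 26 were pump genes. All 19 hydrolases, all 7 membrane or activator genes and 16 of the 26 pump genes passed the filter on low counts, so that 42 members were tested among 9742 genes. The sort gate was CD11b+Ly6G-Ly6Chi, with 1 library from each of 6 young mice (6 months) and 6 aged mice (24 months). All mice were male C57BL/6JNIA animals with no transgene or treatment given in the labels, which name the tissue as tibia and the cell type as bone marrow. The question was whether the pump and the enzymes that depend on it differed with age, and whether they differed alike.

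The vacuolar H+-ATPase (V-ATPase) is a rotary pump that acidifies lysosomes. Its cytosolic V1 sector hydrolyses ATP and its membrane V0 sector carries protons, and most hydrolases of the lysosome work only at the acid pH that it maintains. In osteoclasts, bone-resorbing cells that arise from the same myeloid lineage, the pump is also placed in the ruffled border, where it acidifies the bone surface, with the V0 subunit a3 (Tcirg1), the chloride-proton exchanger Clcn7 and its partner Ostm1.

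Between 8737941 and 16300374 fragments were counted in the aged libraries and between 4613239 and 9079237 in the young libraries. Granule genes of neutrophils were the leading markers at both ages. The summed level of 8 neutrophil markers was 77069 to 96939 CPM (counts scaled to the normalized library total) in aged and 61601 to 84261 CPM in young mice, and that of 10 monocyte markers was 11973 to 17341 CPM in aged and 14740 to 19290.3 CPM in young mice. Most of the monocyte sum came from Lyz2 (mean 11221 CPM in aged and 12345 CPM in young mice) and Itgam, which encodes CD11b (2895 and 3376 CPM), both of which neutrophils are also known to express. Of the other monocyte markers, Ly6c2 averaged 727 CPM in aged and 500.3 CPM in young mice, Csf1r 141 and 134 CPM, Ccr2 31.2 and 37.1 CPM, and F13a1 21.0 and 26.9 CPM. Of the 10 monocyte markers, 2 were called higher in aged mice, Ly6c2 with no overlap of the ages (log2 fold change 0.54, and 0.19 and not called after length correction) and Cd14 (1.11), and 1 was called lower, Itgam (-0.22), which was called neither after length correction nor without aged mouse 1 nor without young mice 5 and 6. These levels go against the label of a monocytic, Ly6G- population, since granule genes of neutrophils led and the monocyte markers Ccr2 and F13a1 were low, so the values below are those of the sorted cells, whatever their makeup. Resident macrophage markers were higher in the aged group, with 12 of 13 tested markers called higher (10 without aged mouse 1 and 9 without young mice 5 and 6) and none of the 15 listed at 0 in all mice. Their sum reached 1919 CPM in aged mouse 1 against 700.5 to 987 CPM in the other 5 aged mice and 454 to 636 CPM in young mice. Within this sum Slc40a1 alone averaged 540 CPM in aged and 435 CPM in young mice, with a log2 fold change of only 0.31. The median log2 fold change of the 13 tested markers was 2.41. It was 1.46 without aged mouse 1 and 2.47 without young mice 5 and 6. Of the 8 neutrophil markers, 5 were called higher in aged mice (1 after length correction, 4 without aged mouse 1 and 1 without young mice 5 and 6). Of 10 genes of cycling cells 3 were called lower, Mki67 (log2 fold change -2.01), Cenpf (-1.57) and Top2a (-0.62). After length correction 2 were lower, and without young mice 5 and 6 also 2, in both without Top2a. Of all genes tested, 22.4% were called higher and 23.0% lower. The shares were 19.4% and 14.9% after length correction, and 14.1% and 17.9% without young mice 5 and 6. Of 9 osteoclast markers 4 were tested and 1, Acp5, was called higher. Acp5 was 0.74 to 10.5 CPM in aged mice (median 2.56, mean 4.03) and 0.59 to 1.41 CPM in young mice (mean 1.03), with overlap. The other tested osteoclast markers, which myeloid cells of other kinds are also known to express, averaged 9681 CPM in aged and 8117 CPM in young mice for Mmp9, 202 and 222 CPM for Nfatc1, and 175 and 170.4 CPM for Itgb3, and Calcr was at 0 in all mice. The part of these cells in the results was not tested. Young mice 5 and 6 also stood apart from the other 4 young mice on the first principal component. Therefore values without aged mouse 1, and without young mice 5 and 6 together, are given below for each member whose call changed. Without aged mouse 1, 12 genes were higher among the other lysosomal enzymes and cofactors, 7 were higher and 2 lower among the other lysosomal membrane proteins, and 2 were higher and 4 lower among both the pump partners and the genes of mannose 6-phosphate sorting, all lists taken up below. In bulk RNA, fewer cells of a type and less RNA per cell cannot be told apart, and the sequencing sample numbers of the young and aged libraries did not interleave, so that whatever went with these numbers and age cannot be told apart. The labels name no batch.

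In aged mice, 26 of the 42 tested members rose, 1 fell and 15 did not pass an adjusted p of 0.05 in edgeR's quasi-likelihood test with Benjamini-Hochberg adjustment. Across all genes tested, 22.4% were called higher and 23.0% lower. The median log2 fold change of the members was 0.27 against 0.0062 over all genes. Values of 14 members were higher in each aged mouse than in any young mouse, and those of 1 member were lower in each aged mouse (9.68% and 12.1% of all genes tested). Leaving out each of the 12 mice in turn, 20 of the 27 called members were called every time. The count of rises was 24 without aged mouse 1, where 21.2% of all genes were called higher and 21.7% lower. It was 14 without young mice 5 and 6, where 14.1% of all genes were called higher and 17.9% lower, and 1 member was lower in both of these fits. After each library was corrected for its dependence on gene length, 20 members were higher and 2 lower, with 19.4% of all genes called higher and 14.9% lower. A core of 10 members was called in the same direction in all of these fits. They were the V1 genes Atp6v1a, Atp6v1c1 and Atp6v1g1, the hydrolases Naglu, Smpd1, Lipa and Ppt1 and the membrane genes Lamp1 and Lamp2, all higher, and the V0 gene Atp6v0a1, the only one lower.

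**Figure D1:**
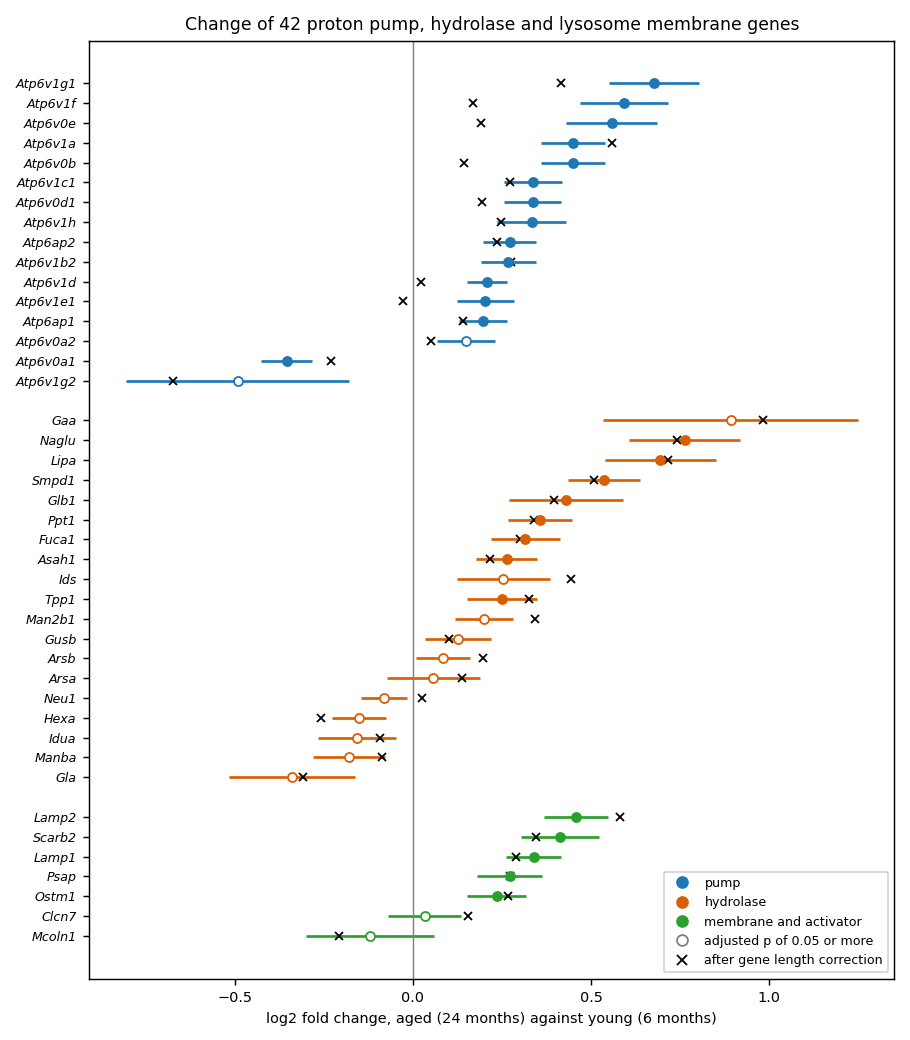
Log2 fold change of each of the 42 tested members in 6 aged against 6 young mice, with bars of 1 SE, filled points for an adjusted p under 0.05 and crosses for the value after gene length correction. Most pump points lie above 0 with Atp6v0a1 called below it, and the crosses of short pump genes such as Atp6v1f (635 bases of exon) and Atp6v0b (996 bases) lie nearer 0 than the points.

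Promoters are shown first because their letters do not depend on the counts of these mice. Many lysosomal genes are known to carry the E-box that transcription factors of the MiT family, such as TFEB, bind. The members were chosen as genes of the lysosome and its pump, so the shares below are not independent of that choice. Its core, CACGTG, which reads the same on both strands, was searched in RefSeq promoter windows of build GRCm38.p6 from 250 bases before to 50 bases after the transcription start. Of the 42 tested members, 36 had a window, and 12 of these (33.3%) held the core, against 12% of 7380 tested genes and 8.09% of 27025 genes with a window. The longer palindrome TCACGTGA, which contains the core, was held by 6 members (16.7%), against 2.47% of tested genes and 1.12% of all genes with a window. The core was found in 4 of 11 pump genes (36.4%), 5 of 18 hydrolases (27.8%) and 3 of 7 membrane or activator genes (42.9%). Among the members that rose it was found in 7 of 21 (33.3%), and among those not called in 5 of 14 (35.7%).

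Stretches with the core in capitals are given 5′ to 3′ on the strand of each gene, for pump and membrane genes that rose, for the hydrolases Naglu and Glb1, which rose, and for Gla and Mcoln1, which were not called. They lie at chr16:44139373-44139402 (Atp6v1a, minus strand), chr4:117887330-117887377 (Atp6v0b, minus), chr8:105566050-105566079 (Atp6v0d1, minus), chr17:26676387-26676416 (Atp6v0e, plus), chr8:13159088-13159163 (Lamp1, plus), chr11:101070009-101070038 (Naglu, plus), chr9:114401018-114401047 (Glb1, plus), chrX:134601182-134601244 (Gla, minus) and chr8:3500436-3500491 (Mcoln1, plus). Lamp1 held 4 cores, and Atp6v0b, Gla and Mcoln1 held 2 each. No core was found in the window of Atp6v0a1, the member that fell, which says only that these letters are not in that window.
Atp6v1a: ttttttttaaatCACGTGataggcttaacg
Atp6v0b: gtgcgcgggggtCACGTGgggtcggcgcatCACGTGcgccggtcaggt
Atp6v0d1: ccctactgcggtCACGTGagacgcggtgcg
Atp6v0e: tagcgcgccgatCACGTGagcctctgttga
Lamp1: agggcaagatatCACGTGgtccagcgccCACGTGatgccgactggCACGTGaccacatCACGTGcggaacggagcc
Naglu: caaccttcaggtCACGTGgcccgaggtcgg
Glb1: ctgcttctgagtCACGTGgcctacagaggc
Gla: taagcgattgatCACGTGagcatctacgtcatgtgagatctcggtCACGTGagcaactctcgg
Mcoln1: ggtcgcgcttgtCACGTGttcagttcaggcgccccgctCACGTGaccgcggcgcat

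In the V1 sector, 8 of 9 tested subunits rose and none fell, with a median log2 fold change of 0.33. Atp6v1g1, the G subunit of the peripheral stalk that links V1 to V0, had the largest rise and the smallest p. Its level was 73.6 to 95.3 CPM in aged mice (median 81.8) and 38.3 to 65.6 CPM in young mice (median 53.8), so that the ages did not overlap. The lowest young values were those of mice 5 and 6 (38.3 and 41.3 CPM), and the other 4 young mice reached 51.9 to 65.6 CPM. Atp6v1g1 (mm10 chr4:63544765-63550701, plus strand) was 1.6-fold higher in aged mice (log2 fold change 0.68, SE 0.13, adjusted p = 0.000753, edgeR), and the log2 value was 0.48 without young mice 5 and 6 and 0.41 after length correction. Of the 50-base stretches of its transcripts, 19.2% also occur in other genes, and such reads may be lost or misplaced by the mapping filter.

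Atp6v1a, the catalytic A subunit that hydrolyses ATP (chr16:44085404-44139019, minus strand), was 251 to 303 CPM in aged mice (median 273) and 158 to 227 CPM in young mice (median 212). Again no aged value fell into the young range, and young mice 5 and 6 were lowest (158 and 172 CPM). The log2 fold change was 0.45 (SE 0.091, adjusted p = 0.00128, edgeR). Unlike the short subunits, Atp6v1a, with 3946 bases of exon, moved further from 0 after length correction (0.56). Atp6v1c1, the C subunit that holds V1 on V0 and is released when the pump disassembles, had a log2 fold change of 0.34 (SE 0.081, adjusted p = 0.00383, edgeR). Its aged values of 44.8 to 57.0 CPM touched the young range of 36.9 to 45.0 CPM.

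Atp6v1e1, the E subunit of the stalk, was the most abundant V1 transcript per kilobase of exon. It was 164 to 193 CPM in aged mice (median 169) and 123 to 169.96 CPM in young mice (median 157), with overlap. The log2 fold change of 0.20 (SE 0.080) only just passed (adjusted p = 0.0492, edgeR). It was -0.029 after length correction and 0.083 without young mice 5 and 6, called in neither, and the call was lost in 8 of the 12 fits without 1 mouse. The remaining called subunits were Atp6v1f (0.59), Atp6v1h (0.33), Atp6v1b2 (0.27) and Atp6v1d (0.21), given as log2 fold changes, and 11.2% of the 50-base stretches of Atp6v1f occur in other genes. Atp6v1f and Atp6v1d were not called after length correction (0.17 and 0.021), and Atp6v1b2 and Atp6v1h were not called without young mice 5 and 6 (0.16 and 0.20).

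The exception in V1 was Atp6v1g2, a G isoform best known from neurons, which was scarce at 1.98 to 3.05 CPM in aged mice (median 2.55) and 1.04 to 5.60 CPM in young mice (median 3.47). Its log2 fold change of -0.49 (SE 0.31) did not pass (adjusted p = 0.212, edgeR). Young mice 5 and 6 had the highest values, and the log2 fold change was 0.053 without them.

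The V0 sector was divided, with 3 of 5 tested subunits higher, 1 lower and 1 not called. Atp6v0a1, the a1 subunit through which protons enter and leave the membrane ring (chr11:101009452-101063717, plus strand), was the only member that fell. Its level was 130.1 to 151 CPM in aged mice (median 138) and 159 to 211 CPM in young mice (median 178). Each aged mouse lay below each young mouse. The log2 fold change was -0.35 (SE 0.073, adjusted p = 0.0014, edgeR), and it was -0.31 without young mice 5 and 6 and -0.23 after length correction, called in both.

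Atp6v0e, the small e subunit, rose most in V0, from 56.4 to 96.7 CPM in young mice (median 90.5) to 98.4 to 136 CPM in aged mice (median 123). The ages did not overlap, and the log2 fold change was 0.56 (SE 0.13, adjusted p = 0.00296, edgeR). Atp6v0b, the c″ subunit of the proton-carrying ring, was 140.4 to 200.5 CPM in aged mice (median 179.8) and 115 to 146 CPM in young mice (median 124). With a slight overlap of the ages, its log2 fold change was 0.45 (SE 0.090, adjusted p = 0.00124, edgeR). Atp6v0d1, the d subunit that connects the ring with the central shaft, also rose, with a log2 fold change of 0.34. None of these 3 rises was called after length correction, where the log2 values were 0.19 for Atp6v0e, 0.14 for Atp6v0b and 0.19 for Atp6v0d1. All 3 were called without young mice 5 and 6. Atp6v0a2, the a2 subunit, had a log2 fold change of 0.15 that was not called, and one of 0.20 that was called higher without aged mouse 1.

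The measured isoforms of the a subunit differ in the membranes to which they direct the pump. Compared per kilobase, Atp6v0a1 stood at 34.8 ± 2.03 CPM per kb (SD, n = 6) in aged and 44.5 ± 4.63 in young mice. Tcirg1 (a3), whose symbol lies outside the selection, stood at 24.2 ± 2.21 in aged and 29.2 ± 13.6 CPM per kb in young mice, and Atp6v0a2 at 16.7 ± 1.68 and 15.1 ± 0.833. In the young group the levels of Atp6v0a1 and Tcirg1 did not separate beyond this spread. The wide spread of Tcirg1 came from young mice 5 and 6, at 154.6 CPM each against 61.7 to 71.6 CPM in the other 4 young mice and 73.9 to 93.5 CPM in aged mice. With all mice, the log2 fold change of Tcirg1 was -0.29 (SE 0.22, adjusted p = 0.307, edgeR). Without those 2 mice it was 0.22 and was called higher, so its direction rested on them. Atp6v0a1 made up 44.4 to 48.0% of the summed a-subunit level of the aged group and 42 to 58.0% of that of the young group. Young mice other than 5 and 6, 4 in number, lay between 51.8 and 58.0%.

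Accessory proteins of the pump were both called higher by small amounts. Atp6ap2, the (pro)renin receptor that assists V0 assembly, was 77.5 to 92.2 CPM in aged mice (median 84.7) and 60.4 to 77.6 CPM in young mice (median 72.0). These ranges touched, and the log2 fold change was 0.27 (SE 0.073, adjusted p = 0.00773, edgeR). Atp6ap1 (Ac45), which also assists assembly, was 244 to 294 CPM in aged mice (median 263) and 207 to 256 CPM in young mice (median 229), with overlap. It had a log2 fold change of 0.20 (SE 0.067, adjusted p = 0.0275, edgeR). Neither was called without young mice 5 and 6, where the log2 values were 0.17 for Atp6ap2 and 0.12 for Atp6ap1.

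**Figure D2:**
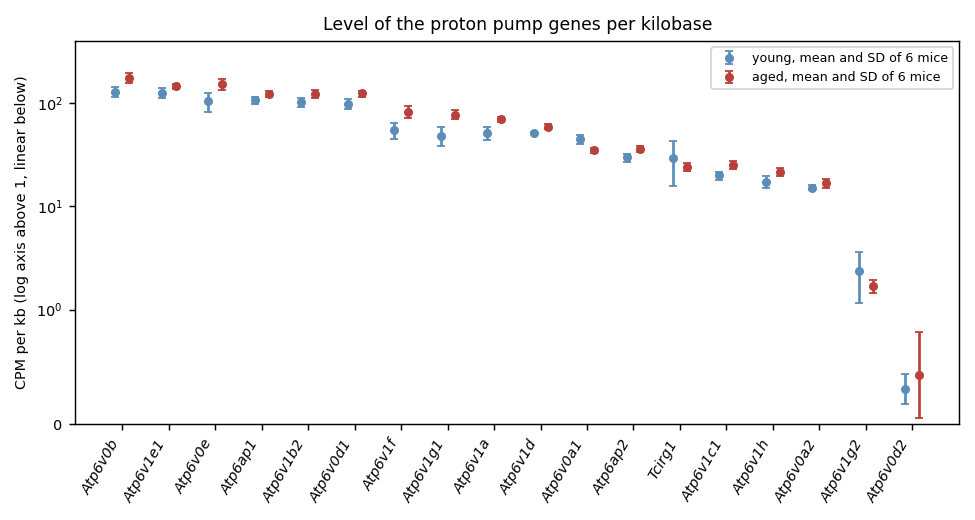
Mean level per kilobase of exon of the 16 tested pump genes, Tcirg1 and Atp6v0d2 in 6 young and 6 aged mice, with bars of 1 SD, on an axis that is logarithmic above 1 CPM per kb. Of these genes Atp6v0b had the highest mean in aged mice (176 CPM per kb), but in young mice its mean (129 ± 13.98 CPM per kb, SD) lay within the spread of that of Atp6v1e1 (126 ± 14.9), Atp6v0a1 is lower in aged than in young mice, and Atp6v1g2 and Atp6v0d2 lie far below the rest.

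Isoforms that mark specialised cells were near or at 0. No count was found in any mouse for 7 of the 10 untested pump genes, among them the kidney isoforms Atp6v1b1 and Atp6v0a4, and Atp6v1c2 had at most 1 count in a mouse. With 3 counts as the floor, a gene without counts could have reached 0.188 to 0.643 CPM, which covers counting error only and does not hold for the pseudogene Atp6v0c-ps2, also among the 7, for the reason given next. Atp6v0d2, the d isoform of osteoclasts, had 3 to 24 counts per mouse, and the 24 were in aged mouse 1. Atp6v0c, the c subunit of the ring, had only 0 to 6 counts, but 97.0% of its exon bases are also listed on the same strand under Atp6v0c-ps2, and the counting command held no option for fragments that belong to 2 genes. The levels of both were therefore not measured by this table, and 27.1% of the 50-base stretches of Atp6v0c also occur in other genes.

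Among the hydrolases, 8 of 19 rose, none fell and 11 did not pass, with a median log2 fold change of 0.25. By kind of substrate, 5 of 5 enzymes for lipids and proteins, 3 of 11 glycosidases and none of 3 sulfatases were called higher, where 22.4% of all genes tested were. After length correction the counts were 4, 4 (with 1 more lower) and 1, without aged mouse 1 they were 4, 2 and 0, and without young mice 5 and 6 they were 3, 1 and 0. By DESeq2 and limma-voom, too, no hydrolase was called lower, and at an unadjusted p under 0.05 in edgeR no hydrolase, V1 subunit, or membrane or activator gene was lower and no sulfatase passed. Without aged mouse 1, which had the highest resident macrophage markers, 6 were higher, and without young mice 5 and 6, 4 were higher.

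Smpd1, acid sphingomyelinase, which releases ceramide from sphingomyelin (chr7:105554360-105558389, plus strand), had the smallest p of the lipid and protein hydrolases. It was 39.9 to 48.9 CPM in aged mice (median 46.8) and 24.4 to 35.4 CPM in young mice (median 34.3). No overlap was found, and the log2 fold change was 0.54 (SE 0.10, adjusted p = 0.000767, edgeR). The log2 value was 0.53 without aged mouse 1, 0.38 without young mice 5 and 6 and 0.51 after length correction.

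Lipa, lysosomal acid lipase, which frees cholesterol and fatty acids from lipoprotein lipids (chr19:34492316-34527474, minus strand), had the largest rise of this kind. Its level was 66.7 to 128 CPM in aged mice (median 81.1) and 37.4 to 62.7 CPM in young mice (median 58.3). Aged mouse 1 was highest by far, with the next aged mouse at 88.2 CPM, but each aged mouse exceeded each young mouse. The log2 fold change was 0.69 (SE 0.16, adjusted p = 0.00246, edgeR), and it was 0.55 without aged mouse 1.

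Asah1, acid ceramidase, was the most abundant of these enzymes per kilobase and overlapped between ages, at 115 to 149 CPM in aged mice (median 135) and 96.9 to 125 CPM in young mice (median 117). Its log2 fold change of 0.26 (SE 0.086, adjusted p = 0.0207, edgeR) was no longer called without young mice 5 and 6 (0.15). Ppt1, which removes palmitate from proteins, rose without overlap (log2 fold change 0.36, chr4:122836227-122859175, plus strand), from 73.2 to 85.6 CPM in young to 86.4 to 126 CPM in aged mice. Tpp1, a peptidase, had a log2 fold change of 0.25 that was called in only 2 of 12 fits without 1 mouse, and it was 0.18 without aged mouse 1 and 0.19 without young mice 5 and 6, called in neither.

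Naglu, which removes N-acetylglucosamine from heparan sulfate (chr11:101070094-101077671, plus strand), was the glycosidase with the smallest p. It was 10.4 to 17.4 CPM in aged mice (median 12) and 5.43 to 8.79 CPM in young mice (median 7.99). There was no overlap, and the 1.70-fold difference (log2 0.76, SE 0.16, adjusted p = 0.0014, edgeR) remained called without aged mouse 1 (log2 0.65). Fuca1, which removes fucose, rose by 0.32 on the log2 scale, and Glb1, the β-galactosidase, by 0.43. Without young mice 5 and 6 neither was called, with log2 values of 0.23 for Fuca1 and 0.31 for Glb1. The call of Glb1 was also lost without aged mouse 1 (log2 0.32) and in 9 of the 12 fits without 1 mouse.

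Gaa, acid α-glucosidase, which degrades glycogen, had the highest fold change of all 42 members without passing the test. It was 4.01 to 19.96 CPM in aged mice (median 6.07) and 2.71 to 5.60 CPM in young mice (median 4.66). The log2 fold change of 0.89 (SE 0.36, adjusted p = 0.0528, edgeR) was 0.41 without aged mouse 1, the mouse with 19.96 CPM. It was called with DESeq2 and after length correction, among other settings. Gla, α-galactosidase A, had the lowest log2 fold change among the glycosidases, -0.34 (SE 0.18, adjusted p = 0.126, edgeR). Its values of 6.74 to 12.6 CPM in aged mice (median 9.49) and 8.79 to 15.4 CPM in young mice (median 12.3) overlapped.

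Man2b1, lysosomal α-mannosidase, was the most abundant hydrolase per kilobase, at 142 ± 16.2 CPM per kb in aged and 123 ± 8.67 CPM per kb in young mice (SD, n = 6). In CPM it was 509 to 725 in aged mice (median 620.1) and 491 to 592 in young mice (median 539). The ranges overlapped, and the log2 fold change was 0.20 (SE 0.081, adjusted p = 0.0558, edgeR). After length correction Man2b1 was called higher (0.34) and Hexa, the α subunit of β-hexosaminidase, was called lower (-0.26), against -0.15 and no call for Hexa before it. The other glycosidases, Gusb, Idua, Neu1 and Manba, had log2 fold changes between -0.18 and 0.13.

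None of the 3 sulfatases, which remove sulfate from glycosaminoglycans or sulfatide, was called. Ids was 32.1 to 48.4 CPM in aged mice (median 43.6) and 25.6 to 44.4 CPM in young mice (median 36.0), with a log2 fold change of 0.25 (SE 0.13, adjusted p = 0.12, edgeR). It was called higher after length correction (0.44). Arsb, the most abundant sulfatase per kilobase, was 61.6 to 79.1 CPM in aged mice (median 69.2) and 61.1 to 73.3 CPM in young mice (median 68.2). Its ranges almost coincided, with a log2 fold change of 0.084 (SE 0.076, adjusted p = 0.38, edgeR), and Arsa had a log2 fold change of 0.058.

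**Figure D3:**
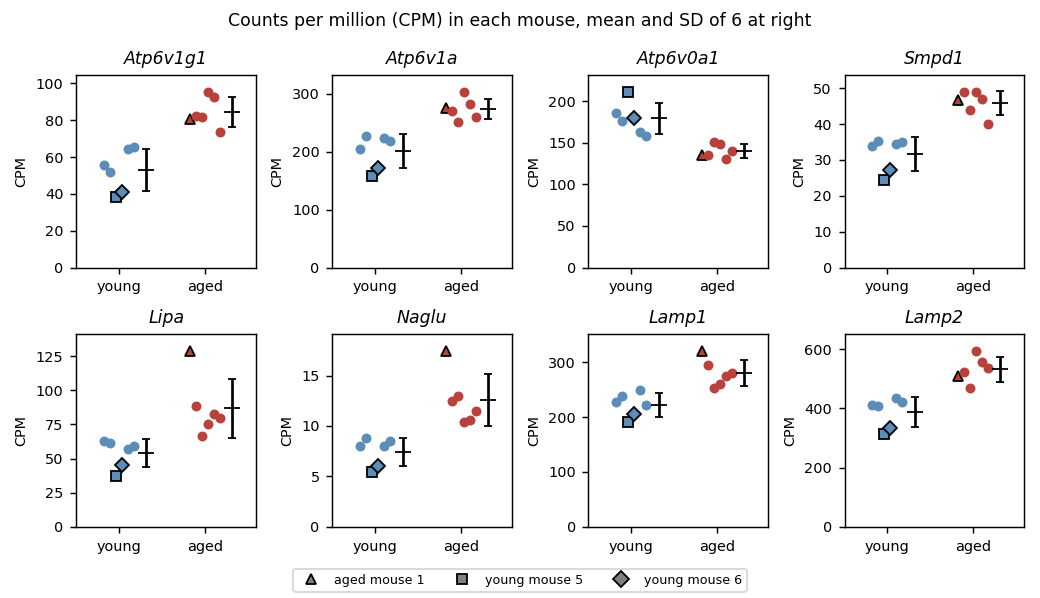
CPM of 8 members called higher or lower in each mouse, with the mean and SD of 6 mice to the right of each age and aged mouse 1 and young mice 5 and 6 marked by shape. The ages do not overlap in any of the 8 panels, Lipa and Naglu are highest in aged mouse 1 (128 and 17.4 CPM), and young mouse 5 is the lowest young mouse in all panels except Atp6v0a1, where it is the highest (211 CPM).

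Of the 7 membrane and activator genes, 5 rose and none fell, with a median log2 fold change of 0.27 before and after length correction. Lamp2, a heavily glycosylated protein of the lysosomal membrane (chrX:38405064-38456455, minus strand), had both the largest rise and the smallest p. It was 469.6 to 593 CPM in aged mice (median 531) and 313 to 436 CPM in young mice (median 409). No overlap was found, and the log2 fold change was 0.46 (SE 0.089, adjusted p = 0.00103, edgeR). Lamp1, its relative (chr8:13159135-13175338, plus strand), was 252 to 319.5 CPM in aged and 190.3 to 248.8 CPM in young mice, again apart, with a log2 fold change of 0.34. Scarb2, the receptor that carries β-glucocerebrosidase to lysosomes, rose by 0.41 on the log2 scale and was just not called without young mice 5 and 6 (0.25).

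Psap, the precursor of the saposins that help enzymes reach lipids, was the most abundant of all members per kilobase (409 ± 52.0 CPM per kb in aged and 339 ± 33.4 in young mice, SD, n = 6). It was 970.3 to 1382 CPM in aged mice (median 1074) and 792 to 1009 CPM in young mice (median 972). The log2 fold change was 0.27 (SE 0.092, adjusted p = 0.0254, edgeR), and it was not called without aged mouse 1 (0.20) or without young mice 5 and 6 (0.16). Mcoln1, a cation channel that lets calcium out of lysosomes, was 8.71 to 14.9 CPM in aged mice (median 12.4) and 8.995 to 18.1 CPM in young mice (median 11.7). With wide overlap, its log2 fold change was -0.12 (SE 0.18, adjusted p = 0.603, edgeR). For the osteoclast pair, Clcn7 had a log2 fold change of 0.033 and was not called, and Ostm1 had one of 0.24 that was called in 8 of 12 fits without 1 mouse and not without young mice 5 and 6 (0.13).

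Set beside each other as a description, without a test, the pump had the larger share of called genes and the hydrolases nearly the same median change. In the pump 13 of 16 tested genes rose, and in the hydrolases 8 of 19, with median log2 fold changes of 0.30 and 0.25. The difference of the medians was 0.052. Taken in single mice, the difference of pump and hydrolases had an SD of 0.105 between mice of one age. That SD is not the error of a difference between the ages and does not decide whether the medians differ. Summed over the 16 genes, the pump stood at 1151 to 1388 CPM per kb in aged mice (median 1237), and the young mice at 853 to 1090.4 CPM per kb (median 1034), without overlap. The summed hydrolases stood at 478 to 565 CPM per kb in aged mice (median 555) and 445 to 515 CPM per kb in young mice (median 488), with overlap. The ratio of the sums was 2.33 ± 0.129 (SD, n = 6) in aged and 2.05 ± 0.123 in young mice, and its ranges of 2.15 to 2.51 and 1.92 to 2.23 overlapped.

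**Figure D4:**
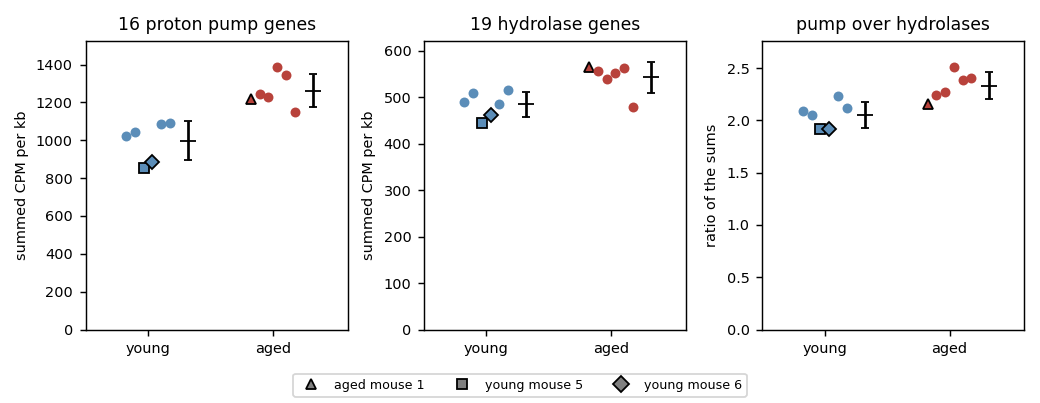
Summed level per kilobase of the 16 tested pump genes (left) and of the 19 hydrolases (middle), and the ratio of the sums (right), in each mouse, with the mean and SD of 6 mice beside each age. The pump sums of the aged mice (1151 to 1388 CPM per kb) lie above all young mice, while the hydrolase sums and the ratios overlap.

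Gene length moved with this comparison. The tested pump genes had a median exon length of 1747 bases and the hydrolases of 3032 bases. Across the 9742 genes, which are not independent replicates, the log2 fold change correlated with length (Spearman's rho = -0.48). In single libraries, the deviation of each gene from its mean over all mice correlated with length by -0.45 to -0.13 in aged and by 0.17 to 0.43 in young mice. After correction for length the rho was -0.054, 6 pump genes and 9 hydrolases were higher, 1 of each was lower, and the median log2 fold changes were 0.18 for the pump and 0.30 for the hydrolases. The difference of the medians was then -0.12, and -0.052 when aged mouse 1 was also left out, so that neither its direction nor its size held across these fits. Atp6v1a, Atp6v1b2, Atp6v1c1, Atp6v1g1, Atp6v1h and Atp6ap2 were the 6 pump genes called higher in both fits. Among the hydrolases, Glb1 (0.39) and Asah1 (0.22) were no longer called, and Gaa (0.98), Man2b1 (0.34) and Ids (0.44) were newly called higher.

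Other genes of the lysosome were taken from lists chosen by function. Of 23 further lysosomal enzymes and cofactors, 14 rose and none fell, with a median log2 fold change of 0.37, and 14 were higher after length correction and 9 without young mice 5 and 6. Gm2a, the activator that lifts the ganglioside GM2 to β-hexosaminidase, rose most (118 to 303 CPM in aged and 77.2 to 149 CPM in young mice, log2 fold change 1.03). Grn, the precursor of the granulins, had the smallest p, and each aged mouse (380.5 to 414 CPM) exceeded each young mouse (242 to 311 CPM), with a log2 fold change of 0.47. Sumf1, which activates the sulfatases, was the lowest of this list at -0.040 and was not called. Among 18 other lysosomal membrane proteins 7 rose and 2 fell, with Laptm4a (0.56) and the scarce Laptm4b (1.37) higher and the arginine sensor Slc38a9 lower (-0.62), all as log2 fold changes. Of this list 5 were higher and 1 lower after length correction, and likewise without young mice 5 and 6. Of all genes tested, 22.4% were called higher and 23.0% lower. These shares were 19.4% and 14.9% after length correction, and 14.1% and 17.9% without young mice 5 and 6. The fall of Slc38a9 was not called after length correction (-0.17) or without young mice 5 and 6 (-0.30). The other fall, that of Cln3 (-0.55), was named after its value was seen. It was still called after length correction (-0.55) and without young mice 5 and 6 (-0.23).

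Of 12 tested partners of the pump, 2 were higher and 4 lower, where 22.4% of all genes tested were called higher and 23.0% lower. After length correction 2 were higher and none lower. Without young mice 5 and 6, 3 were higher and 3 lower. Vma21, a chaperone of V0 assembly in the endoplasmic reticulum, rose by 0.60 on the log2 scale, from 6.73 to 12 CPM in young to 13.9 to 17.4 CPM in aged mice. Ncoa7, a protein that binds V1, was lower (-0.51), but was called neither after length correction (-0.30) nor without young mice 5 and 6 (-0.44). Dmxl1, a component of the complex that reassembles V1 with V0, was lower in each aged mouse (56.8 to 73.8 CPM) than in any young mouse (84.2 to 110.2 CPM), with a log2 fold change of -0.48. Its exons span 12211 bases, and after length correction the value was 0.095 and was not called. The other called partners, named after their values were seen, were Dmxl2 (-0.45), Oxr1 (-0.34) and Rnasek (0.40), which stood at 0.082, -0.15 and -0.022 after length correction, with none of them called.

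For sorting by mannose 6-phosphate, the tag that directs hydrolases to lysosomes, 2 of 9 genes were higher and 4 lower, with 1 higher and 1 lower after length correction and 1 higher and 4 lower without young mice 5 and 6. Of all genes tested, 22.4% were called higher and 23.0% lower, 19.4% and 14.9% after length correction, and 14.1% and 17.9% without young mice 5 and 6, so that with all mice the share called higher was near that of all genes. Igf2r, the large receptor for that tag, was lower in each aged mouse (134 to 232 CPM) than in any young mouse (233 to 272 CPM), with a log2 fold change of -0.53, but it was not called after length correction (-0.11). M6pr, another receptor for the tag and named after its value was seen, went the other way with a log2 fold change of 0.29. It was called after length correction (0.24) but not without young mice 5 and 6 (0.25). Gnptg, a subunit of the enzyme that makes the tag, had a log2 fold change of 0.30 (0.062 after length correction, not called). Of 20 tested MiT factors and parts of the lysosomal mTORC1 machinery, 6 rose and 3 fell, with 4 higher and none lower after length correction and 4 higher and 2 lower without young mice 5 and 6, to be read against the shares of all genes just given. All 9 called genes belonged to the mTORC1 machinery, and none of the 4 MiT factors was called, with log2 fold changes of 0.18 for Tfeb, -0.14 for Tfe3, -0.33 for Mitf and 0.23 for Tfec. Without aged mouse 1, Tfeb was called higher (0.21), and 7 genes of the list were higher and 3 lower. Lamtor4, part of the Ragulator scaffold on the lysosome, rose by 0.58 on the log2 scale and was still higher after length correction (0.24). Tsc1, an inhibitor of this pathway, fell by 0.66 and Mtor, its kinase, fell by 0.38 on the log2 scale. After length correction neither was called, with log2 values of -0.29 for Tsc1 and 0.042 for Mtor.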

How the data were processed

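Cells sorted as M-MDSCs from 6 young and 6 aged mice were sequenced as stranded paired-end libraries. The authors deposited a table of fragment counts per gene, made with featureCounts 2.0.0 over the exons of a UCSC gene annotation of mm10 (reverse strand, both ends mapped to 1 chromosome, mapping quality of at least 60) and not normalized. Fragments that fit several places were thereby left out, which bears on genes with close copies. The aligner is not given in the sources used here. Exon lengths are those deposited by the authors in the same table.

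Samples were grouped by the labels. The main test was the quasi-likelihood test of edgeR 4.0.16 (R 4.3.3) with filterByExpr, TMM factors and Benjamini-Hochberg adjustment over all 9742 genes tested, with a threshold of 0.05. CPM used the TMM-scaled totals, CPM per kb the deposited length, and SEs came from the fold change and F statistic. In place of DESeq2, which the study used, edgeR was the main tool, and DESeq2 1.42.0 was an alternative. The other alternatives were limma-voom (limma 3.58.1), other scalings and filters (among them at least 10 counts in every mouse), a loess correction of each library for gene length, thinning to the smallest total, each mouse left out and a replicate block. A length correction without aged mouse 1, a fit without young mice 5 and 6 and the block's 8 mice without the block were added after the data were seen. Medians and counts of a list describe it and are not tests. The fits were tested on simulated data.

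The members and lists were chosen with earlier results of these data known. Full values are given for the member with the largest rise, the largest fall, the smallest p and the highest level per kilobase of each list, for called members against their list's majority and for Tcirg1. Members called in every fit were also described, chosen after their values were seen. Promoter windows are from RefSeq (GRCm38.p6), and 50-base stretches were compared with GENCODE M21 transcripts. No 2 libraries of the same age agreed within counting error (chi-square per gene at least 1.72). Separate mice are the replicates, and the biological coefficient of variation was 15.7%.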

Additional observations from a re-analysis of the deposited data

Results flagged for a closer look

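In each age, the highest or lowest mouse was compared with the nearest other mouse for the 42 tested members and Tcirg1. Of 86 such groups of 6 mice, 5 had a mouse far from the rest, and chance alone marks about 1 in 20 groups. Aged mouse 1 was apart for Gaa (19.96 CPM, next aged mouse 7.69 CPM), Glb1 (20.5 CPM, next 14.96 CPM), Naglu (17.4 CPM, next 12.9 CPM) and Lipa (128 CPM, next 88.2 CPM). The same mouse had the highest sum of resident macrophage markers, 1919 CPM against at most 987 CPM in the other aged mice, and the part of those cells in the 4 values was not tested. Young mouse 5 was apart for Tpp1, at 27.3 CPM against 32.8 CPM in the next young mouse.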

How the results depend on the processing

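The number of pump genes called higher, 13, was 6 after gene length correction, 6 after length correction without aged mouse 1, 8 without young mice 5 and 6, and 11 to 14 without 1 mouse. Pump genes called lower, 1, came to 1 to 2 without 1 mouse (2 without young mouse 9, where Atp6v1g2 was also called). The 8 hydrolases called higher became 5 to 10 without 1 mouse and 4 without young mice 5 and 6, and 1 hydrolase, Hexa, was called lower without TMM factors, after length correction and after length correction without aged mouse 1. Membrane and activator genes called higher, 5, were 3 without TMM factors, 3 to 5 without 1 mouse (3 without young mouse 5 or young mouse 6) and 2 without young mice 5 and 6. Other lysosome and pump genes called lower, 13, were 2 after length correction, with or without aged mouse 1. The difference of the pump and hydrolase medians, 0.052, was -0.12 after length correction, -0.052 after length correction without aged mouse 1, and lay between 0.050 and 0.089 without 1 mouse. Among the genes described, those called with all mice that changed direction after length correction were Atp6v1e1 (-0.029), Dmxl1 (0.095, and 0.087 without aged mouse 1), Mtor (0.042, and 0.062 without aged mouse 1), and from the other lists Dmxl2 (0.082), Rnasek (-0.022) and Sort1 (0.11). Tcirg1 was 0.22 without young mice 5 and 6. Of the 12 promoters with CACGTG, 6 held TCACGTGA. Length correction draws on the exon lengths and changes no sample, but the causes of these shifts were not tested. Omitting the TMM factors moved the median of all genes by -0.087.

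Mice with the same number in both ages did not deviate together (correlations of -0.14, -0.066, -0.25 and -0.26), and no aged mouse correlated best with the young mouse of its number, so the numbers do not pair the mice. In the fit with the replicate block on these 8 mice, 5 hydrolases were higher, 2 pump genes were lower and 19 of the 27 called members were called, against 23 in the same mice without the block.

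Depth limits the scarce members: 3 counts correspond to up to 0.643 CPM in the smallest library.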
